A study of Mus musculus with 36 samples.

Results

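Bmf and 9 related genes of the BCL2 family (Bcl2l11, Bbc3, Bcl2, Bcl2l1, Mcl1, Bax, Bak1, Bid and Bad) were followed through mouse livers. These 10 genes were picked by name from a table of 53715 gene identifiers, and Bmf heads them because its level differed between mice fed 2 kinds of tomato. The livers came from 36 male C57BL/6 mice aged 10 weeks, 12 libraries per diet, while the design text allows for groups short of 1 mouse. From 4 weeks of age and for 6 weeks, the control group ate AIN93G, a purified rodent diet. The red and tangerine groups ate the same kind of diet with 10% red or 10% tangerine tomato powder, and the diets were matched in macronutrients. Each library was read as 1 mouse from the number in its title.

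Proteins of the BCL2 family decide whether the outer mitochondrial membrane is opened during apoptosis. Bcl2, Bcl2l1 and Mcl1 encode guardians that keep the membrane closed, and Bax and Bak1 encode the effectors that form pores in it. Bmf, Bcl2l11 (Bim), Bbc3 (Puma), Bid and Bad encode BH3-only proteins, which bind the guardians or, for some of them, the effectors. BMF protein can be held at the cytoskeleton through a dynein light chain and released under stress. Hepatocytes are known to depend on MCL1 and BCL-XL, the product of Bcl2l1, and BID links death receptors to mitochondria in these cells.

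In the RefSeq promoter table for mouse build GRCm38.p6, the 250 bases before the start of Bmf lie at chr2:118549687-118549936 on the minus strand, and those before Bcl2l11 at chr2:128125788-128126037 on the plus strand. Both genes are on chromosome 2. Bmf has 3 listed starts and Bcl2l11 has 2, and only the start nearest the GENCODE gene start was searched for each. Bcl2l11 is shown because its level went with that of Bmf from mouse to mouse within diets, in a fit added after seeing the data. Bid also went with Bmf there, less so without 2 livers, as described further on, and its promoter is not shown. Capitals mark a nuclear receptor half-site (AGGTCA) in Bmf, and a FOXO motif (GTAAACA) and GC boxes (GGGCGG) in Bcl2l11.
Bmf: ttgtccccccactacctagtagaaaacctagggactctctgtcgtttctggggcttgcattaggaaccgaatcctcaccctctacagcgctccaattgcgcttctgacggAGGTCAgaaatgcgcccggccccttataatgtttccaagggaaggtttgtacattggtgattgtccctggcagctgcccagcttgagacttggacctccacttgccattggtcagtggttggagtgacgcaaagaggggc
Bcl2l11: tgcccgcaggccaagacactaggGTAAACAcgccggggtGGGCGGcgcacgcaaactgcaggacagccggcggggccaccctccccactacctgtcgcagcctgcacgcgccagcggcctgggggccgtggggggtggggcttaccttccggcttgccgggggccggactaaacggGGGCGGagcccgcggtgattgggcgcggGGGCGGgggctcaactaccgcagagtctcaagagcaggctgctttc
The half-site in Bmf spans bases -140 to -135 before the start, and the FOXO motif in Bcl2l11 spans bases -227 to -221. Searched on both strands of 32851 promoter windows of 250 bases, AGGTCA occurred in 14.0%, GTAAACA in 3.17% and GGGCGG in 32.7%. The E-box CACGTG was found in neither window and in 6.02% of all. The D-box (TTATGTAA, TTATGCAA or TTACGTAA) was also found in neither, and occurred in 1.61% of all windows. These matches describe letters and are not evidence of binding.

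Libraries held 21290169 to 33810573 counts, and 14068 genes, among them 9 of the 10 members, passed the filter on low counts. Levels are in CPM, counts scaled to a common library size. The summed CPM of 7 hepatocyte markers was 85359.6 to 127008 in all 36 livers. The summed CPM of 10 T cell markers was 194.7 in red mouse 186 and at most 6.12 in any other liver, and tangerine mouse 216 stood out in pancreas markers with 12.4. Tangerine mouse 192 had the highest sums of cholangiocyte markers (111) and stellate cell markers (456). Mouse numbers were unevenly spread over the diets: all red mice had numbers from 133 to 204, whereas 6 tangerine and 3 control mice had numbers above 204. The labels do not say whether a number marks a litter, a cage or a day of collection. In bulk tissue, fewer cells of a type and less RNA per cell cannot be told apart.

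Compared with each other per kilobase of exon, the family members spanned a wide range of levels in liver. The length was that of all annotated exons of a gene together, 5253 bases for Bmf and 1576 for Bax. The transcript forms present in liver were not determined, and the order depends on this length. Mcl1 led with 24.3 ± 2.87 CPM per kb (SD, n = 36) and was above the next gene in 36 of 36 livers. Bcl2l1 followed at 6.41 ± 1.03 and Bax at 5.90 ± 0.806 CPM per kb, and Bcl2l1 was above Bax in 24 of 36 livers. Bad (4.67 ± 0.648), Bbc3 (4.36 ± 1.35) and Bid (4.33 ± 0.574 CPM per kb) came next. Bad was above Bbc3 in 22 livers and Bbc3 above Bid in 19, so these neighbours were not separated beyond their spread. Bmf followed at 2.51 ± 1.62 CPM per kb, with Bid above it in 31 of 36 livers. Bcl2l11 was lower at 1.01 ± 0.239, and Bmf was above it in 32 livers. Bcl2 was lowest of the detected members at 0.129 ± 0.0397 CPM per kb, and Bcl2l11 was above it in 36 of 36 livers. Among the guardians the order in liver was therefore Mcl1, Bcl2l1, Bcl2.

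**Figure D1:**
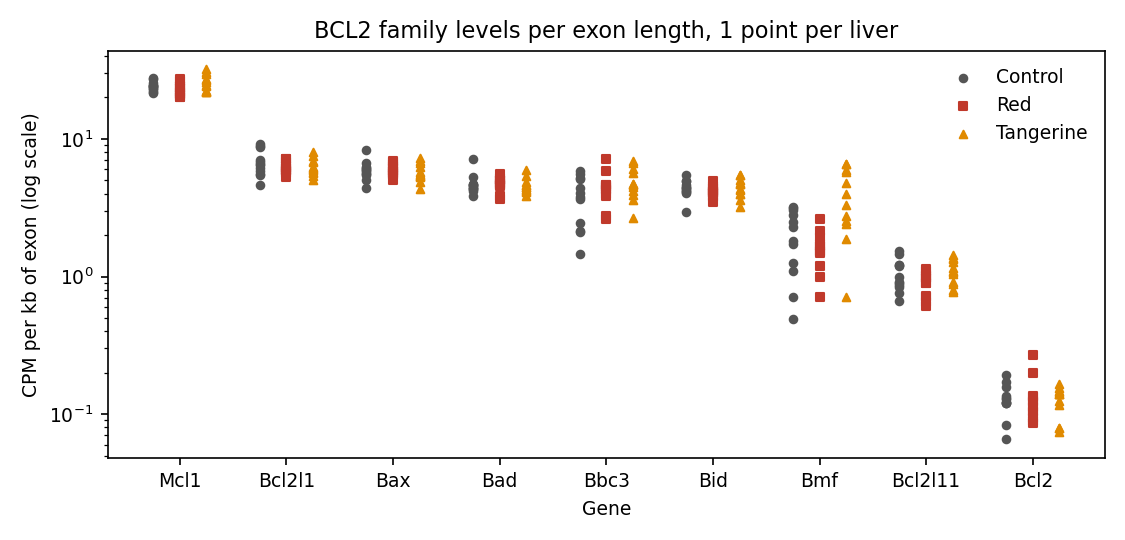
CPM per kb of exon (log axis) of the 9 detected members in each of 36 livers, by diet. Mcl1 lies above all other members and Bcl2 below them, and the points of Bmf spread more widely than those of any other member in each diet.

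Bak1, the second effector, had 0 counts in all 36 livers, which with a floor of 3 counts per library allows at most 0.15 CPM in any of them. This value may depend on how reads were assigned. Of its 2407 exon bases, 437 overlap Ggnbp1 on the opposite strand, which averaged 5.71 ± 1.34 CPM on control (SD, n = 12). The strand setting of the counting is not given in the sources used here. Bid and Bad share 628 and 524 exon bases with genes on the opposite strand, and they averaged 418.9 and 323.8 counts. What set Bak1 to 0 was not tested. The identifier of Bak1 in the table also carries another version than in GENCODE release M21. Among protein-coding identifiers with another version, 14.2% were at 0 in all libraries, against 20.6% of those with the same version. Bak1 is therefore listed at 0, with no statement on its expression.

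Bmf (ENSMUSG00000040093; GRCm38 chromosome 2, 118528757 to 118549687, minus strand) was highest on tangerine tomato. On the control diet its level ran from 2.59 CPM in mouse 188 through a median of 10.7 to 16.8 in mouse 120. On the red diet it ran from 3.72 CPM in mouse 177 through 8.41 to 13.7 in mouse 202. On the tangerine diet it ran from 3.75 CPM in mouse 195 through 19.2 to 34.4 in mouse 215. The groups overlapped at the low end, since tangerine mouse 195 was close to the lowest mice of the other diets. At the high end, 8 of 12 tangerine livers were above every red liver and 7 of 12 were above every control liver. The reads behind these values numbered 73 to 1067 per library.

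The mean level of Bmf was 10.5 ± 5.05 CPM on control, 8.39 ± 2.65 on red and 20.6 ± 10.3 on tangerine (SD, n = 12 each). In edgeR the log2 difference of tangerine from red was 1.30 (SE 0.288), a 2.46-fold higher level. On tangerine, 11 of 12 livers were above the red median. Tangerine was above control by 0.97 on the log2 scale (SE 0.285), with 10 of 12 livers above the control median. Red differed from control by -0.33 (SE 0.289). Because Bmf was picked for the values on tangerine against red, these differences are descriptions and carry no test. They also share livers with one another.

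**Figure D2:**
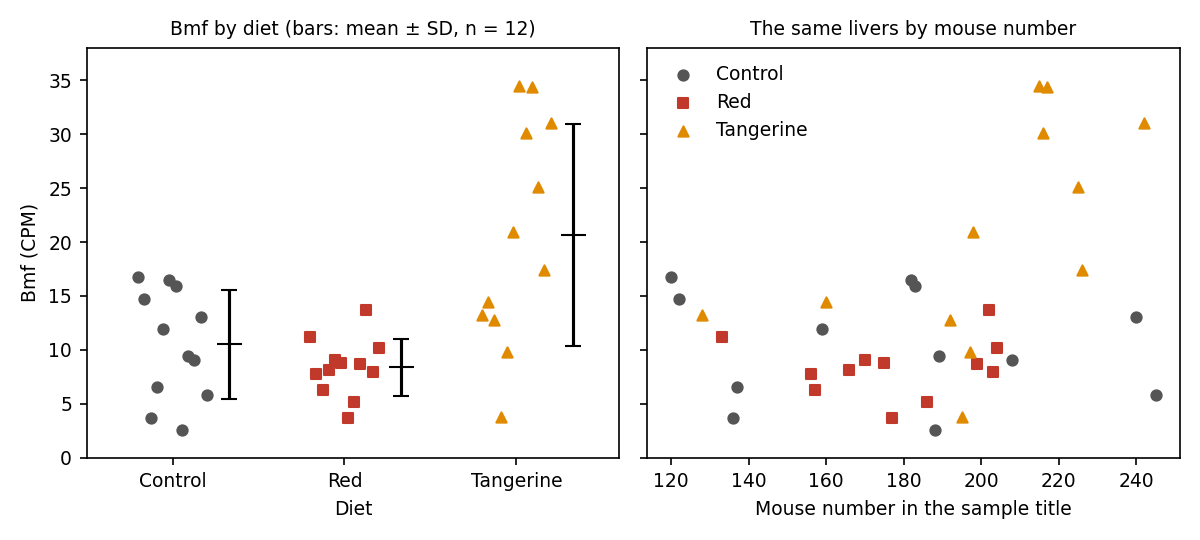
Bmf in CPM by diet (left, with mean and SD of 12 livers) and by mouse number (right), 1 point per liver. The highest points are tangerine mice with numbers above 204, where no red mouse lies.

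The high Bmf values fell in tangerine mice with high numbers. The 6 tangerine mice numbered 128 to 198 had 12.5 ± 5.64 CPM (3.75 to 20.95; SD), and the 6 numbered 215 to 242 had 28.7 ± 6.53 CPM (17.4 to 34.4). Controls had 10.9 ± 5.57 CPM in the 9 mice numbered up to 189 and 9.32 ± 3.65 CPM in the 3 numbered 208 to 245. When only mice numbered up to 204 were kept, a setting chosen after seeing the data, the log2 difference of Bmf between tangerine and red was 0.58, and between tangerine and control it was 0.20. Red against control was -0.38 in those mice. With the mouse number as a covariate, tangerine against red was 1.21. No red mouse had a number above 204, so diet and what the numbers may stand for cannot be told apart there.

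As a share of the 5 BH3-only genes, summed in CPM per kb, Bmf made up 12.2% ± 5.22 on control, 10.1% ± 2.92 on red and 19.8% ± 8.06 on tangerine (SD, n = 12 each). The highest share was 31.8% in a tangerine liver, against 19.3% on control and 15.03% on red. These shares rest on the same counts of Bmf and on the annotated exon lengths, and are a description too.

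The other detected members were tested for diet, with p-values from edgeR's quasi-likelihood test adjusted over all 14068 genes by the Benjamini-Hochberg method. None of the 8 other tested members passed the threshold of 0.05 in any of the 3 diet comparisons. At an unadjusted p under 0.05 there were 0 of 8 for red against control, 0 of 8 for tangerine against control and 2 of 8 for tangerine against red. Over all genes tested, 0.149%, 0.0142% and 1.71% were called in these comparisons, and 13.3%, 5.47% and 15.1% had an unadjusted p under 0.05. DESeq2 also called 0 of 8 in each comparison, and limma-voom called 0, 0 and 1 of 8, beside 10.5%, 0.0142% and 5.2% of all genes. The median log2 difference of the 8 members was -0.038, -0.0067 and 0.063 in the same order, beside medians of -0.0047, -0.012 and -0.0046 over all genes.

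Bcl2l11, the BH3-only gene nearest to Bmf on the chromosome among the members, ran from 5.37 CPM through a median of 7.66 to 12.3 on control. It ran from 4.86 through 7.505 to 9.17 on red and from 6.21 through 8.79 to 11.5 CPM on tangerine. The diets overlapped, and 5 of 12 tangerine livers were above every red liver. Its log2 difference of tangerine from red was 0.30 (SE 0.128, 95% interval 0.036 to 0.55, adjusted p = 0.256 in edgeR).

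Bbc3, a classical target of p53, ran from 3.08 through 8.30 to 12.3 CPM on control, from 5.57 through 9.32 to 15.1 on red and from 5.64 through 9.94 to 14.6 on tangerine. Both tomato diets had means above control, and the groups overlapped. Its log2 difference was 0.21 (SE 0.186, adjusted p = 0.658) for red and 0.34 (SE 0.186, 95% interval -0.035 to 0.72, adjusted p = 0.936) for tangerine against control in edgeR.

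Bid, which carries the signal of death receptors to mitochondria, had 15.6 ± 2.16 CPM on control, 14.7 ± 1.34 on red and 15.8 ± 2.46 on tangerine (SD, n = 12 each). Bad, whose protein is governed by phosphorylation under growth factor signals, had 12.1 ± 2.16, 12.1 ± 1.37 and 11.7 ± 1.45 CPM. For both genes the groups overlapped, and the log2 differences lay between -0.078 and 0.10 over the 3 comparisons. Bid shares 628 exon bases with Bcl2l13 and Bad shares 524 with Gpr137, both on opposite strands, so their counts are uncertain if strand was not used in counting.

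Among the guardians, Mcl1 had the smallest adjusted p of the 8 tested members. It ran from 74.0 through 83.0 to 94.1 CPM on control, from 68.7 through 77.4 to 93.5 on red and from 74.7 through 86.5 to 110 on tangerine. Tangerine mice 215, 216 and 217 were above every red and control liver, and all other tangerine livers overlapped with them. Its log2 difference of tangerine from red was 0.18 (SE 0.0635, 95% interval 0.047 to 0.30, adjusted p = 0.158 in edgeR). With limma-voom and sample weights it was 0.20 with an adjusted p of 0.043, and over the 8 other settings the adjusted p lay between 0.0969 and 0.782.

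Bcl2l1 had 31.0 ± 6.63 CPM on control, 28.4 ± 2.69 on red and 28.8 ± 4.003 on tangerine (SD, n = 12 each). The spread of its control livers was wider than that of the tomato groups, and its log2 differences lay between -0.13 and 0.021. Bcl2 was low in every liver, with counts of 12 to 82 per library, and had 1.18 ± 0.317, 1.20 ± 0.487 and 1.15 ± 0.288 CPM. Its highest value, 2.48 CPM, was in red mouse 186, the liver with the T cell markers, and the next liver had 1.82 CPM. Without that mouse the red mean was 1.08 ± 0.287 CPM (SD, n = 11), and the part of the T cell transcripts in it was not tested. The effector Bax had 9.37 ± 1.51, 9.45 ± 0.898 and 9.08 ± 1.40 CPM, with log2 differences between -0.058 and 0.014.

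**Figure D3:**
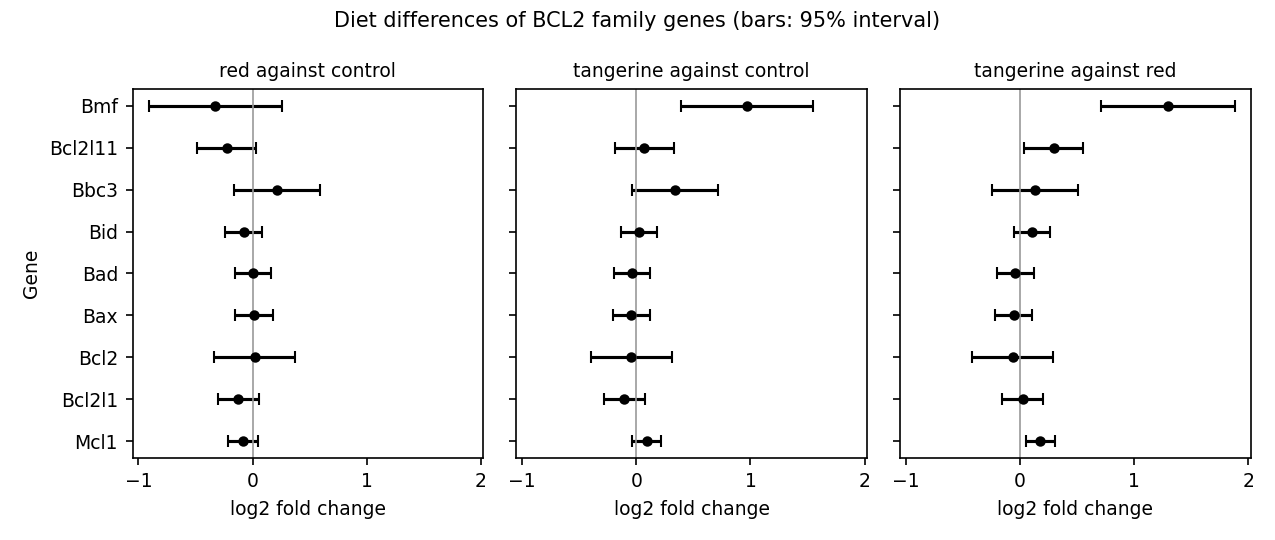
Log2 difference between diets of the 9 tested members with 95% intervals from the edgeR fit of 36 livers. Bmf has the widest shift, 1.30 on tangerine against red. It was picked for that comparison, so its intervals are a description and no test. The other members lie between -0.23 and 0.34.

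The wider cell death machinery was read from 6 lists of 104 genes, of which 88 were tested. None was called for red against control or for tangerine against control in edgeR. At an unadjusted p under 0.05 there were 11 and 5 of 88, beside 13.3% and 5.47% of all genes. DESeq2 called 1 and 0 of them in these comparisons, beside 1.37% and 0.0498% of all genes. Limma-voom called 14 and 0 of 88, beside 10.5% and 0.0142% of all genes. For tangerine against red 2 of 88 were called, both higher on tangerine, beside 1.71% of all genes. An unadjusted p under 0.05 was found for 18 of 88, beside 15.1% of all genes. The 88 genes had a median log2 difference of 0.0026 there.

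Vdac1, a channel of the outer mitochondrial membrane, had a median of 166 CPM on red (149 to 191) and 189 on tangerine (167 to 215), with control at 185 (165 to 214). It was 1 of the 2 called genes and belongs to the list of the mitochondrial pathway. Its log2 difference of tangerine from red was 0.19 (SE 0.0482, adjusted p = 0.0311 in edgeR), with 12 of 12 livers above the red median. The red group was the low one, and control and tangerine means were closer to each other than to red. Red against control was -0.18 for Vdac1 (adjusted p = 0.0859).

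The call of Vdac1 depended on which livers entered. It passed no longer when red mouse 133, 175, 199 or 202, or tangerine mouse 198, 215, 216, 217 or 242, was left out singly, with adjusted p from 0.0504 to 0.0769 in edgeR. With only mice numbered up to 204 the log2 difference of Vdac1 was 0.14 (adjusted p = 0.274). Vdac1 was also not called without a low-count filter (adjusted p = 0.0811), with the mouse number as a covariate (adjusted p = 0.0597) or without red mouse 186 and tangerine mouse 216 (adjusted p = 0.104).

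The other lists had no call on tangerine against red in edgeR, and the following genes are the leading ones by p-value. Among other BCL2 family genes, Bnip3, a mitophagy receptor, had a log2 difference of 0.38 (adjusted p = 0.205) and Bcl2l12 had -0.27 (adjusted p = 0.273). In the death receptor list, Traf2 and Casp8, an adaptor and the initiator caspase that cleaves BID, had -0.19 each (adjusted p = 0.095 and 0.0979). Among binding partners and regulators, Foxo3, a transcription factor known to drive Bcl2l11 and Bbc3, was at 46.2 ± 10.7 CPM on red and 61.5 ± 15.2 on tangerine (SD, n = 12 each). Its log2 difference was 0.41 (adjusted p = 0.106). Ywhae, a 14-3-3 protein, had 0.13 (adjusted p = 0.299). Of FOXO targets, Pdk4 had -1.16 (adjusted p = 0.059) and G6pc -0.67 (adjusted p = 0.266). Of p53 targets, Mdm2 had -0.19 (adjusted p = 0.0807) and Sesn1 0.25 (adjusted p = 0.107).

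Against control the leading genes of the lists were also not called. For red, Bnip2 had a log2 difference of -0.17 (adjusted p = 0.231), Becn1 0.16 (0.341), Ywhae -0.19 (0.155), Foxo1 -0.27 (0.518), Tnfsf10 -0.27 (0.307), Fas 0.19 (0.326), Pdk4 0.92 (0.196), Gadd45a -0.50 (0.4999), Gtse1 0.53 (0.439) and Trp53inp1 -0.40 (0.566), with adjusted p from edgeR in parentheses. For tangerine, Cdkn1a, a p53 target that halts the cell cycle, had -1.72 (adjusted p = 0.587), with 1 control liver at 40.1 CPM against a control median of 4.30. Further leading genes for tangerine were Ddit3 (-0.36), Tnfrsf1b (-0.29), Casp8 (-0.088), Foxo3 (0.21), Dffb (-0.24), Becn1 (0.12), Bik (0.20), Mdm2 (-0.11), G6pc (-0.63) and Gadd45b (-0.52), all with an adjusted p of at least 0.837.

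Clock genes and glucocorticoid targets, which both swing with the time of day in liver, were read beside Bmf. Of 15 tested clock genes, 7 were called on tangerine against red in edgeR, 3 higher and 4 lower, beside 1.71% of all genes. The 9 glucocorticoid targets had a median log2 difference of 0.080 there, with a smallest adjusted p of 0.354. Against control their medians were -0.60 on red and -0.43 on tangerine, with 8 of 9 negative in each. At an unadjusted p under 0.05 there were 6 and 2 of 9, beside 13.3% and 5.47% of all genes. The smallest adjusted p were 0.170 and 0.587 in edgeR. Dbp is an output gene of the liver clock, and Arntl is a core clock gene that peaks at the opposite time of day. The log2 ratio of their CPM was used as a stand-in for the phase of a liver. This ratio was 2.94 ± 2.70 on control, -0.022 ± 2.07 on red and 3.84 ± 1.98 on tangerine (SD, n = 12 each). The labels give no time of collection. Dbp and Arntl themselves differed on tangerine against red, by 1.84 (adjusted p = 0.0289) and -1.46 (adjusted p = 0.0464 in edgeR). A covariate that itself differs between diets cannot tell time of day and diet apart. With the ratio as a covariate, the log2 difference of Bmf on tangerine against red was 0.83, on tangerine against control 0.83 and on red against control -0.0012, as a description. With it the difference of Vdac1 (0.12, adjusted p = 0.407) was not called in edgeR, and neither was any of the 14068 genes for tangerine against red.

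Whether Bmf follows this ratio was tested in the 12 control livers, which took no part in picking Bmf. Its log2 level changed by 0.061 per unit of the log2 ratio (SE 0.095, 95% interval -0.14 to 0.26, adjusted p = 0.988 in edgeR over 12551 genes). No other member was called, beside 0.311% of all genes. Bid came closest with 0.058 per unit (SE 0.0197, unadjusted p = 0.0104, adjusted p = 0.544), and 5.74% of all genes had an unadjusted p under 0.05. Control mouse 188, with a ratio of -3.59 and the lowest control Bmf, weighed on both: without it the slope was -0.13 for Bmf (adjusted p = 0.9996) and 0.023 for Bid. Without mice 188 and 189, the pair farthest from the median ratio, the slope of Bmf was -0.21 (adjusted p = 0.978).

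Fitted with a slope for each diet, an analysis added after seeing the data, Bmf had 0.062 per unit on control, -0.064 on red and 0.32 on tangerine. The tangerine slope had an SE of 0.0922, and its difference from the red slope was 0.38 (SE 0.129). Since Bmf was picked for its values in the red and tangerine livers, these slopes are descriptions with no test. Of all 14068 genes, edgeR called 2.54% for the tangerine slope, 0.697% for control, 0.22% for red and 0% for a difference between slopes. Tangerine mice 215, 216, 217 and 242 had ratios of 5.16 to 6.89 and Bmf of 30.1 to 34.4 CPM, so within the tangerine diet the livers with the highest ratio and the highest Bmf were the same and had numbers above 204. Control mice 208, 240 and 245, those numbered above 204, also had high ratios (5.56, 5.06 and 4.70), with Bmf of 9.07, 13.1 and 5.80 CPM. Control mice 136 and 159, with lower numbers, had ratios of 4.87 and 4.50 and Bmf of 3.70 and 11.9 CPM. Among the other members, Bid had a tangerine slope of 0.086 (SE 0.0237, adjusted p = 0.0382) and Mcl1 0.069 (SE 0.0208, adjusted p = 0.0688). With all 36 livers and diet as a term, Bid was called at 0.050 per unit (adjusted p = 0.0149 in edgeR), as were 733 of 14068 genes. Bmf had 0.099 per unit in that fit.

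**Figure D4:**
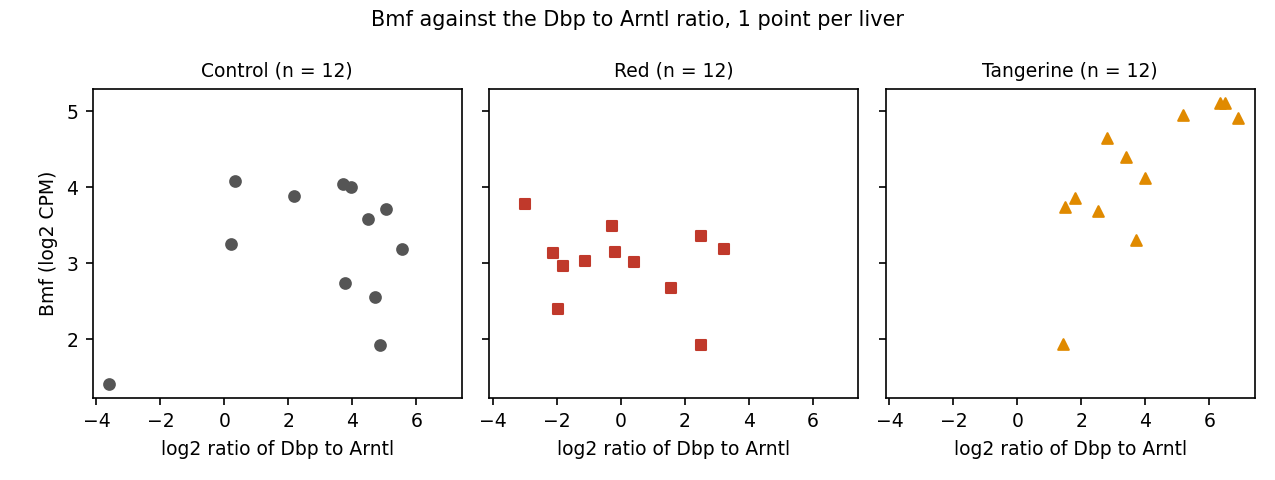
Bmf in log2 CPM against the log2 ratio of Dbp to Arntl in each liver, 1 panel per diet. The tangerine livers spread from 1.44 to 6.89 in ratio, with the highest Bmf among the highest ratios, and control mouse 188 stands apart at the lower left.

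How the members varied with Bmf from mouse to mouse was examined within diets, in a fit of all genes on log2 CPM of Bmf with diet as a term. This fit was added after seeing the data, and its red and tangerine livers also served to pick Bmf. Its p-values are therefore descriptive. Within tangerine, Bmf also differed with mouse number, as given above. In each diet the liver lowest in Bmf also had the highest summed CPM of 7 Kupffer cell markers. These were control mouse 188 (283), red mouse 177 (318) and tangerine mouse 195 (266), beside diet medians of 211, 233 and 220. The part of cell composition in the relations below was not tested. Of the 8 other members, 2 were called in edgeR, beside 6.88% of 14067 genes. Bcl2l11 rose by 0.25 in log2 level per log2 unit of Bmf (SE 0.0566, adjusted p = 0.00734). The correlation of diet-centred log2 CPM was 0.60 over 36 livers (Spearman 0.62), with 0.66 in control, 0.52 in red and 0.61 in tangerine livers. Without the pair of livers farthest from their diet mean in Bmf, tangerine mouse 195 and control mouse 188, the slope was 0.29 (adjusted p = 0.0313) and the correlation 0.57.

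Bid rose by 0.16 per log2 unit of Bmf (SE 0.0352, adjusted p = 0.00557 in edgeR). Its correlation with Bmf was 0.66 over 36 livers (Spearman 0.55), with 0.60 in control, 0.29 in red and 0.81 in tangerine livers. This relation rested partly on those 2 livers: both had the lowest Bid of their diets, 11.4 and 10.4 CPM. Without them the slope was 0.10 with an adjusted p of 0.174, and the correlation was 0.41. The other 6 members were not called, with Bcl2l1 (0.11, adjusted p = 0.121) and Mcl1 (0.076, adjusted p = 0.142) nearest. The correlations of Bmf with Bax (-0.29) and Bad (-0.22) were negative. Over the 36 pairs of tested members the median correlation was 0.10, and 21 pairs were positive. The lowest was -0.69, between Bcl2 and Bad. Control mouse 137 had the lowest Bcl2 (0.60 CPM) and the highest Bad (18.3 CPM) of all livers. Red mouse 186 had the highest Bcl2 (2.48 CPM) and the lowest Bad (9.43 CPM). The correlation without these livers was not computed.

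**Figure D5:**
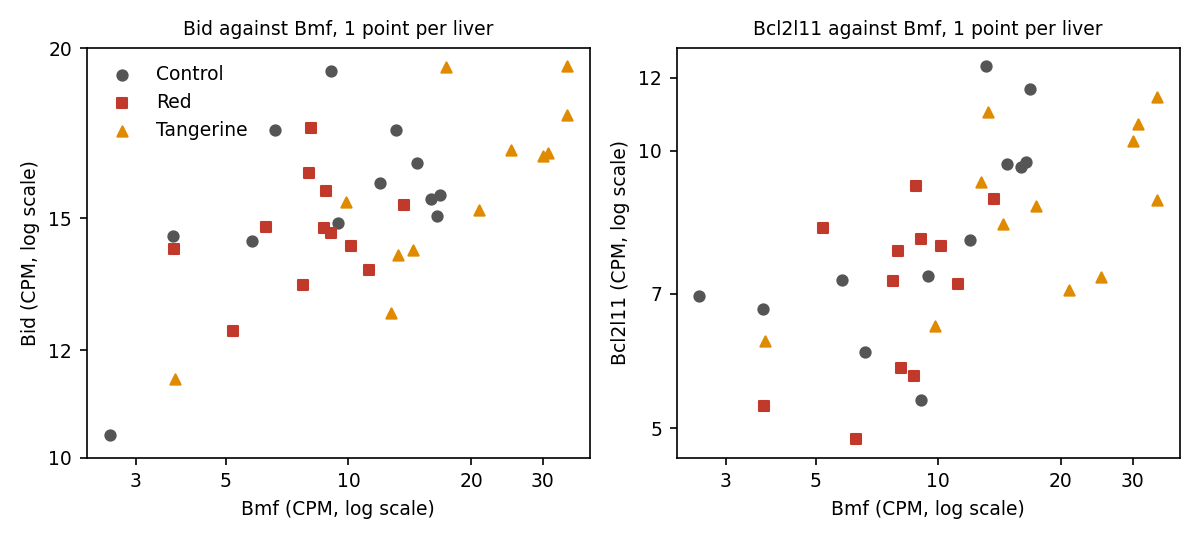
Bid (left) and Bcl2l11 (right) against Bmf in CPM, log axes, 1 point per liver. Control mouse 188 and tangerine mouse 195 hold the lower left corner for Bid, while control mouse 137 combines a Bmf of 6.61 CPM with a Bid of 17.4 CPM.

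The genes most like Bmf over the 36 livers, by the correlation of diet-centred log2 CPM among 10968 genes, were Slc8b1 (0.79), Mn1 (0.78), Mafg (0.76), Dlg3 (0.76), Ermard (0.75) and Fzd4 (0.75). Slc8b1 is a mitochondrial sodium and calcium exchanger, Mafg a small Maf transcription factor and Fzd4 a Wnt receptor. Within single diets Slc8b1 had correlations from 0.66 to 0.92, while that of Fzd4 was 0.30 on red. The lowest correlations were those of Nop58 (-0.77), Bysl (-0.76), Nelfa (-0.74) and Nifk (-0.73). Nop58 and Bysl act in the making of ribosomes. Of the clock genes, Cry2 ranked 25th with 0.68, whereas Dbp had 0.33 and Arntl -0.31. These correlations share the libraries, their depth and their cell composition, and carry no test.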

How the data were processed

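The authors deposited raw counts per gene, not normalized, in 1 table of 36 liver libraries. Per the labels' protocols, libraries were made with a directional kit. Per the submitters' processing notes, FastQC, Trimmomatic, edgeR and build GRCm38.p6 were involved. The aligner, counter, annotation release and strand setting are not given in the sources used here. Identifiers were matched without version to GENCODE M21, which gave 53620 of 53715 a symbol. No 2 libraries of a diet were near copies (198 pairs, smallest chi-square per degree of freedom 13.7).

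Counts were filtered with filterByExpr (count 10, total 15), scaled by TMM and tested with edgeR 4.0.16 (quasi-likelihood, robust) in R 4.3.3, with the 12 livers of each diet as replicates. P-values were adjusted over all genes tested, with a threshold of 0.05. Log2 CPM used a prior count of 2. Floors (3 counts) cover counting error only. Alternatives were DESeq2 1.42.0, limma-voom (limma 3.58.1) with sample weights, other size factors, no filter, covariates and subsets of libraries. The test was tried on simulated data with changed genes drawn at random. It recovered 64% of log2 differences of 0.5 and 93% of those of 1 for tangerine against red. For slopes of 0.25 on a simulated covariate over 12 control libraries, it recovered 57.9%.

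The members and all gene lists were chosen with earlier results of these data known. Named genes were the members, Dbp, Arntl, up to 5 called genes of each pathway list per comparison or else up to 2 with the smallest p, and the 6 highest and 4 lowest correlates of Bmf (mean log2 CPM 1 or more). Cry2 was named after its value was seen. Mice numbered up to 204, single libraries left out, slopes per diet and slopes on Bmf were added after seeing the data. Another called gene of the pathway lists is not reported here.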

Additional observations from a re-analysis of the deposited data

How the results depend on the processing

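No paired analysis was possible because no mouse number occurs in more than 1 diet. The log2 difference of Bmf kept its direction under every setting tried but not its size. Red against control was -0.0012 with the ratio as covariate, where tangerine against red was 0.83. Tangerine against control was 0.20 and tangerine against red 0.58 with mice numbered up to 204. Leaving out 1 liver gave -0.42 to -0.25 for red against control, 0.87 to 1.07 for tangerine against control and 1.20 to 1.40 for tangerine against red. Its slope on the Dbp to Arntl ratio in control livers turned to -0.21 without the 2 livers farthest from the median ratio, and ranged from -0.13 to 0.14 with 1 liver left out. Of members other than Bmf, limma-voom called 1 (Mcl1) on tangerine against red, beside 5.2% of all genes, and all 36 libraries with diet as a term called 1 (Bid) for that slope, beside 733 of 14068 genes. The slope of Bid on Bmf fell to 0.0996 without the 2 livers farthest in Bmf.

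Counts of called cell death pathway genes follow, each with the share of all genes called. Red against control had 1 with DESeq2 (1.37%), 14 with limma-voom (10.5%), 1 with only mice numbered up to 204 (0.293%) and 0 to 1 with 1 liver left out (1 without red mouse 204). Tangerine against red had 1 without the low-count filter (0.498%), 4 with DESeq2 (3.39%), 9 with limma-voom (5.2%), 0 with the ratio as covariate (0%), 1 with mouse number as covariate (0.227%), 5 with only the groups compared (2.42%), 1 without red 186 and tangerine 216 (0.612%), 0 with mice numbered up to 204 (0.146%), and 1 to 3 with 1 liver left out. The cause was not tested.

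All members whose direction turned were uncalled, as log2 differences. With the ratio as covariate, red against control gave 0.00068 for Mcl1, -0.069 for Bax, 0.079 for Bid and -0.0025 for Bad. In that fit tangerine against control gave -0.019 for Bid, and tangerine against red -0.065 for Bcl2l1, 0.046 for Bax and -0.098 for Bid. With mice numbered up to 204, red against control gave -0.012 for Bbc3, -0.026 for Bcl2, -0.032 for Bax and -0.0068 for Bad. Tangerine against control then gave -0.059 for Bcl2l11, -0.025 for Mcl1, 0.021 for Bax and -0.12 for Bid, and tangerine against red 0.0090 for Bcl2, -0.085 for Bcl2l1, 0.053 for Bax and -0.082 for Bid. With limma-voom, Bcl2 gave -0.21 for red against control and 0.11 against red on tangerine, while tangerine against control gave -0.017 for Bcl2l11 and 0.0060 for Bad. Without red 186 and tangerine 216, Bcl2 gave -0.13 and Bax -0.0070 for red against control, and Bcl2 0.058 for tangerine against red. With mouse number as covariate, tangerine against control gave 0.011 for Bax and -0.014 for Bid. Depth limits Bcl2 most, with 12 to 82 counts per library.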
